A study of Rattus norvegicus with 96 samples.

Results

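The 10 clock genes described here were Clock, Bmal1, Per1, Per2, Per3, Nr1d1, Nr1d2, Dbp, Bhlhe40 and Bhlhe41, of 14217 genes named on the array. They were read by all probe sets that the platform annotation assigned to these symbols, 17 of 31042 probe sets. Of these, 13 were bright enough to test in each region, at least 1 for each gene. The other 4 (Clock 1369168_a_at and 1380098_at, Per3 1388239_at and Nr1d2 1370540_at) had a mean at or below the limit for dim probe sets, the 40th percentile of all means (6.96 in the CeA and 7.09 for the NAc shell).

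RNA was measured in the central amygdala (CeA) and the accumbens shell (NAc shell) of P rats, which were selectively bred to prefer alcohol. Some rats had limited access to ethanol and the control rats had none (labelled water), and both are labelled with 1, 6 or 24 h since the last drinking episode. The CeA groups held 11, 10 and 10 arrays of ethanol rats at 1, 6 and 24 h, and 6, 5 and 6 of water rats. For the NAc shell the numbers were 10, 10 and 11, and 7, 5 and 5. The labels used here give no age, sex, intake, light schedule or hour of the day. They do not say which arrays come from 1 rat, so p values measure the spread between arrays. Hours since the episode and hour of the day cannot be told apart. Values are log2 levels, on which a difference of 1 is a doubling, and a probe set is said to pass, rise or fall when its limma p, adjusted over all 18625 probe sets tested, was under 0.05.

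As background, the mammalian clock is a transcription loop in which CLOCK and BMAL1 bind E-box sequences and switch on their own repressors. PER proteins join CRY proteins to block CLOCK and BMAL1, the REV-ERB receptors (NR1D1 and NR1D2) repress Bmal1 through ROR elements, DBP activates genes through D-boxes, and the DEC proteins (BHLHE40 and BHLHE41) compete for E-boxes. Many brain regions outside the hypothalamic pacemaker express this loop, and Per1 is also induced by neuronal activity and by glucocorticoids.

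These elements can be read in the promoters of several of the genes. RefSeq promoters of build GRCr8, from 250 bases before to 50 after a gene start, were present for 10 of 10 genes (12 promoters) and were searched on both strands. The E-box CACGTG was in promoters of 3 of the genes and in 6.42% of all 33469 promoters. The variant CACGTT was in 2 genes (4.83% of all), the D-box TTATGTAA in 1 (0.89%), the ROR element in 1 (0.25%; AGGTCA preceded by AANT), AGGTCA alone in 2 (16.18%; in Bmal1 it is within the ROR element) and the cAMP response element TGACGTCA in 0 (1.83%). A match says only that these letters are in the window. The stretches below are shown because they carry the element of the loop named in front, in capitals, 5′ to 3′ on the strand of the gene.
Nr1d1 E-box: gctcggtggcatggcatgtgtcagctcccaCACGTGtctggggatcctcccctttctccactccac
Bhlhe40 E-box: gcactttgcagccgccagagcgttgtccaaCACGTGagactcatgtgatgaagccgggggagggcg
Bhlhe41 E-box: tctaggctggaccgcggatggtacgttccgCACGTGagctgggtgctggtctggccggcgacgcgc
Per2 E-box variant: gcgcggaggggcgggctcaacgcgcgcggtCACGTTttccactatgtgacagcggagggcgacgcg
Per2 D-box: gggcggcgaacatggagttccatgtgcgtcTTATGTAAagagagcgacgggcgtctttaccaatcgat
Bmal1 ROR element: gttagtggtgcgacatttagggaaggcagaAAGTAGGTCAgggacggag

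All of these stretches lie upstream of an annotated gene start in GRCr8. Nr1d1, with 2 annotated starts, has its E-box 191 bases before the more downstream one (chr10:84229610-84229675, minus strand). The E-box of Bhlhe40 begins 220 bases before its start (chr4:143174200-143174265, plus strand) and that of Bhlhe41 48 bases before (chr4:180569368-180569433, minus strand). In Per2 the E-box variant begins 62 bases (chr9:99497020-99497085, minus strand) and the D-box 192 bases before the start (chr9:99497148-99497215, minus strand). The ROR element of Bmal1 begins 19 bases before its start (chr1:176766279-176766327, plus strand).

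Some arrays stood apart. In the CeA 4 of 48 arrays correlated poorly with the others, 1 ethanol array at 1 h, 1 ethanol array at 6 h and water arrays 16 and 17 at 6 h, and in the NAc shell 5 of 48 did, 2 of them at 6 h. All 4 CeA arrays belong to the last of 4 runs of title numbers, a new run starting where the labelled hours fall back. Runs were counted apart in ethanol and in water arrays. Ethanol and water runs of the same rank were then taken as 1 run, which the labels do not state. The water part of run 4 is only arrays 16 and 17 at 6 h. Crh, a peptide of central amygdala neurons, averaged 9.15 in the CeA against 6.50 in the NAc shell, and Drd1, a striatal dopamine receptor, 11.30 and 13.74. The other measured markers of central amygdala neurons were mixed. With the CeA first, Prkcd (9.68 and 8.88) and the dim Dlk1 (6.23 and 5.69) were higher in the CeA. Higher in the NAc shell were Penk (13.68 and 14.42), Sst (11.58 and 11.85), Nts (11.04 and 11.52) and Cartpt (9.96 and 12.77). Of 4 measured markers of cortical and basolateral amygdala neurons, 0 were bright enough to test in the CeA. Of the markers of thalamic, hypothalamic and pallidal neurons, Tcf7l2 (11.17), Slc17a6 (10.14) and Avp (7.46) were bright enough there. Oxt, Hcrt and Sim1 were not. In tissue RNA, fewer cells of a type and less RNA per cell cannot be told apart.

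In the CeA, the repressor genes Nr1d1, Nr1d2, Per1 and Per2 and the output gene Dbp were higher 24 h than 6 h after the last episode, while Per3, Bhlhe40 and Bhlhe41 did not pass. Averaged over ethanol and water rats, 6 of 13 clock probe sets passed between 6 h and 24 h, against 0.247% of all probe sets. All 6 rose, from 5 genes (Nr1d1, Nr1d2, Per1, Per2 and Dbp), with 0.166% of all probe sets called higher and 0.0805% lower. Of the 13 differences 11 were above 0, with a median of 0.28, and over all probe sets 49.6% were above 0 with a median of -0.00. Between 1 h and 6 h 2 of 13 passed, Nr1d1 and Nr1d2, against 0.0537% of all. Both fell (0.0268% of all probe sets called lower), and the median of the 13 was -0.25. Between 1 h and 24 h 0 of 13 passed in limma (2 at an unadjusted p under 0.05), and 0% of all probe sets did. These comparisons share arrays, so that low values at 6 h enter both the fall and the rise.

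Nr1d1, which encodes REV-ERBα, had the smallest p of all 18625 probe sets between 6 h and 24 h. Its CeA level in ethanol rats was 8.59 ± 0.12 (n = 11; 8.47, 8.55 and 8.84) at 1 h, where values after ± are SDs and those in brackets the lowest, median and highest array. It was 8.12 ± 0.20 (n = 10; 7.86, 8.13 and 8.43) at 6 h and 8.61 ± 0.22 (n = 10; 8.30, 8.62 and 8.90) at 24 h. Every ethanol array at 6 h was thus below every one at 1 h, while the 6 h and 24 h arrays overlapped. Water rats had 8.50 ± 0.24 (n = 6; 8.09, 8.56 and 8.74) at 1 h, 8.14 ± 0.21 (n = 5; 7.94, 8.13 and 8.48) at 6 h and 8.81 ± 0.14 (n = 6; 8.61, 8.84 and 8.98) at 24 h. Here the 6 h and 24 h arrays did not overlap. Over both treatments Nr1d1 rose by 0.58 from 6 h to 24 h (SE 0.07, 95% interval 0.44 to 0.73, limma adjusted p = 4.16e-06), its 6 h level being 0.67 of that at 24 h. It fell by 0.42 from 1 h to 6 h (SE 0.07, limma adjusted p = 0.00433).

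Nr1d2, which encodes REV-ERBβ, was read by 2 tested probe sets that gave the same direction. The first, 1390430_at, stood over both treatments at 12.64 ± 0.16 (n = 17; 12.25, 12.66 and 12.81) at 1 h, 12.36 ± 0.10 (n = 15; 12.20, 12.36 and 12.59) at 6 h and 12.69 ± 0.14 (n = 16; 12.40, 12.71 and 12.88) at 24 h. The spread at each time was small, and the times overlapped. It rose by 0.32 from 6 h to 24 h (SE 0.05, 1.25-fold, limma adjusted p = 5.41e-04) and fell by 0.25 from 1 h to 6 h (SE 0.05, limma adjusted p = 0.0366). That fall was lost when any 1 of 15 of the 48 arrays was left out (adjusted p up to 0.131). The second, 1370541_at, rose by 0.28 from 6 h to 24 h (SE 0.06, limma adjusted p = 0.0383), a call lost without any 1 of 17 arrays.

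**Figure D1:**
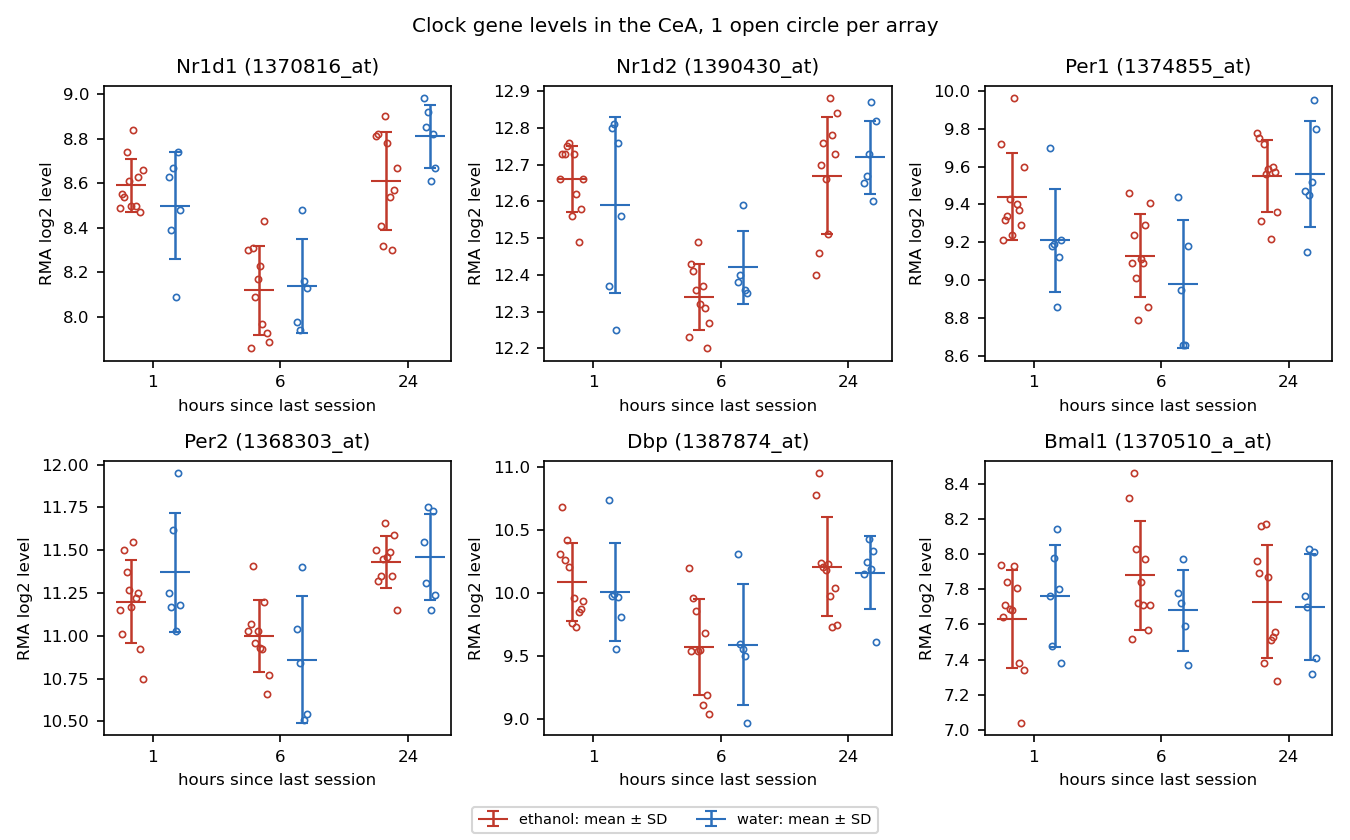
RMA log2 level (vertical axis) of 6 clock probe sets in the CeA against hours since the last episode, with 1 open circle per array and bars for mean ± SD, red for ethanol and blue for water rats. Nr1d1 is lowest at 6 h in both treatments, at 8.12 in ethanol and 8.14 in water rats, and vertical axes differ between panels and do not start at 0.

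Of the period genes, whose proteins repress CLOCK and BMAL1, Per1 and Per2 rose from 6 h to 24 h. Per1 stood at 9.36 ± 0.26 (n = 17; 8.86, 9.32 and 9.96) at 1 h, 9.08 ± 0.26 (n = 15; 8.66, 9.09 and 9.46) at 6 h and 9.55 ± 0.22 (n = 16; 9.15, 9.57 and 9.95) at 24 h. The times overlapped, with the lowest array at 6 h. Per1 rose by 0.50 (SE 0.09, 1.41-fold, limma adjusted p = 0.00334). Per2 (1368303_at) stood at 11.26 ± 0.28 (n = 17; 10.75, 11.22 and 11.95), 10.95 ± 0.27 (n = 15; 10.51, 10.96 and 11.41) and 11.44 ± 0.19 (n = 16; 11.15, 11.46 and 11.75) at the same times, again with overlap. It rose by 0.51 (SE 0.09, 1.43-fold, limma adjusted p = 0.00246). The probe sets of Per2 disagreed, since 1378560_at differed by 0.02 (95% interval -0.08 to 0.13, adjusted p = 0.863). Per3 averaged 9.49, 9.19 and 9.50, and its difference of 0.28 did not pass (SE 0.09, adjusted p = 0.257).

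Dbp, the D-box activator and a clock output, had the largest difference of the 13 between 6 h and 24 h and a wide spread. It stood at 10.06 ± 0.33 (n = 17; 9.56, 9.97 and 10.74) at 1 h, 9.57 ± 0.40 (n = 15; 8.97, 9.55 and 10.31) at 6 h and 10.19 ± 0.35 (n = 16; 9.61, 10.20 and 10.95) at 24 h, with overlap between all times. It rose by 0.61 (SE 0.13, 1.52-fold, limma adjusted p = 0.0295), a call lost when any 1 of 6 arrays was left out. The DEC repressors did not pass: Bhlhe41 differed by 0.11 (SE 0.03, adjusted p = 0.214) and Bhlhe40 by 0.44 (SE 0.21, adjusted p = 0.440). Bhlhe40 had the widest spread of the genes in the CeA, 8.96 ± 0.60 at 1 h, 8.72 ± 0.55 at 6 h and 9.11 ± 0.52 at 24 h.

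The activators did not pass. Bmal1, which REV-ERBs repress, stood at 7.68 ± 0.28 (n = 17; 7.04, 7.71 and 8.14), 7.82 ± 0.29 (n = 15; 7.37, 7.72 and 8.46) and 7.72 ± 0.30 (n = 16; 7.28, 7.73 and 8.17) at 1, 6 and 24 h, times that overlapped almost wholly. Its 24 h minus 6 h difference was -0.07 (95% interval -0.29 to 0.15, adjusted p = 0.823). Clock differed by 0.07 by 1389456_at (95% interval -0.06 to 0.20, adjusted p = 0.670) and by -0.10 by 1390199_at (95% interval -0.25 to 0.04, adjusted p = 0.572).

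**Figure D2:**
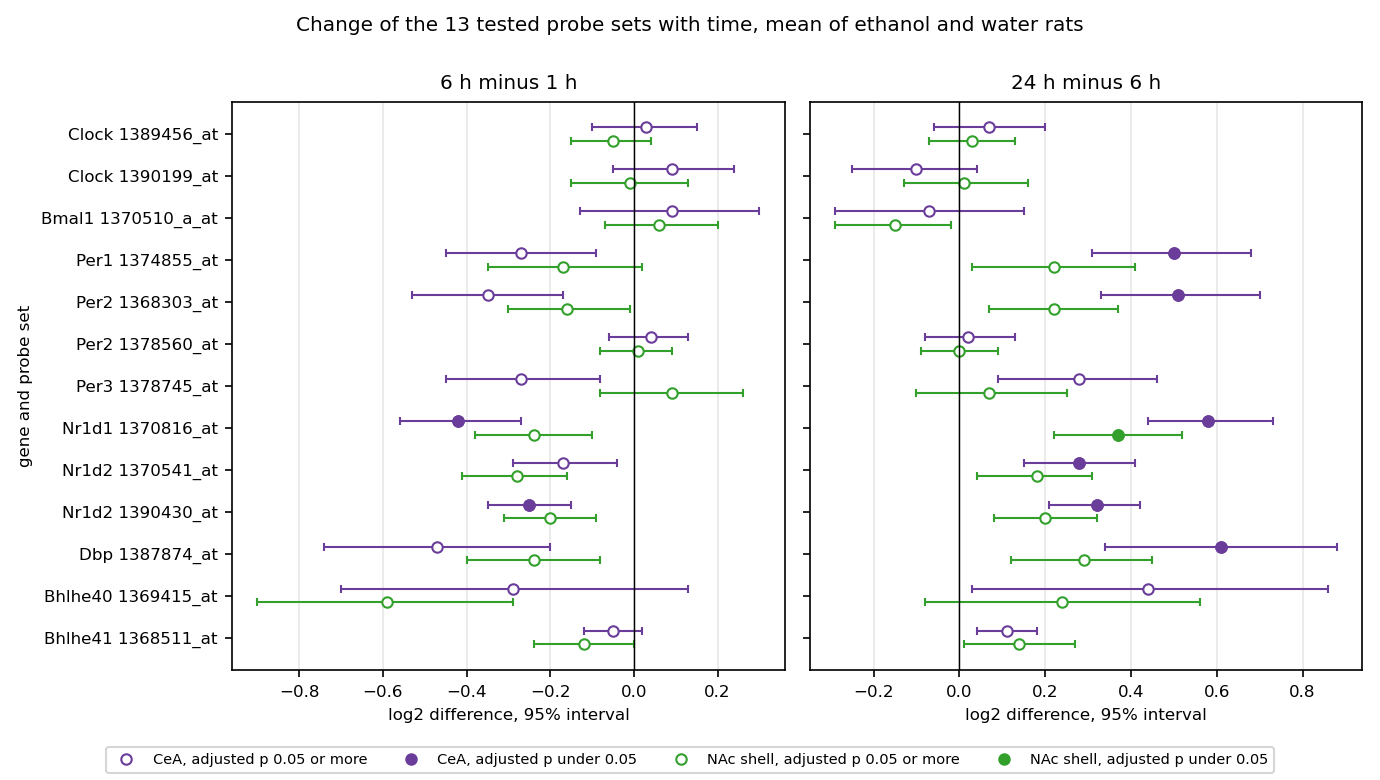
Log2 difference (horizontal axis) of the 13 tested clock probe sets between 1 h and 6 h and between 6 h and 24 h, mean of ethanol and water rats, with limma 95% intervals, purple for the CeA and green for the NAc shell; filled points have an adjusted p under 0.05. From 6 h to 24 h 6 CeA points and 1 NAc shell point are filled, all above 0, and from 1 h to 6 h 2 CeA points are filled, below 0.

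The test of any change over the 3 times passed for 4 of 13 clock probe sets in the CeA, against 0.166% of all: Nr1d1, Nr1d2 1390430_at, Per2 1368303_at and Per1 (limma adjusted p = 6.98e-06, 0.00128, 0.00998 and 0.0168). Several of these calls were lost without the 4 poorly correlated CeA arrays. Without them Nr1d1 kept its rise of 0.57 (adjusted p = 2.96e-04), as did Nr1d2 1390430_at with 0.30 (0.0254) and Per1 with 0.49 (0.0311). Per2, with 0.39 (0.235), Dbp, with 0.46 (0.558), and Nr1d2 1370541_at, with 0.24 (0.480), no longer passed. Of the falls from 1 h to 6 h only that of Nr1d1 still passed (-0.41, adjusted p = 0.0327), while over the 3 times only Nr1d1 did (adjusted p = 0.00150). Leaving out 1 of these arrays, water array 16 at 6 h, was enough to lose Per1 and Per2 over the 3 times (adjusted p = 0.0829 and 0.0829).

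With the run of title numbers as a block, more clock probe sets passed in the CeA: 6 of 13 over the 3 times (0.177% of all), 7 from 6 h to 24 h (0.263%; 0.183% higher) and 3 from 1 h to 6 h (0.0591%; 0.0322% lower). Per3 was added from 6 h to 24 h (0.36, SE 0.07, limma adjusted p = 0.0116) and Dbp from 1 h to 6 h (-0.41, SE 0.08, limma adjusted p = 0.0110). Within runs 1 to 4, Nr1d1 differed by 0.73, 0.63, 0.31 and 0.76 between 6 h and 24 h, Per2 by 0.44, 0.39, 0.36 and 0.43 and Dbp by 0.35, 0.53, 0.45 and 0.64. Bmal1 differed by -0.22, -0.10, -0.26 and -0.36, and in the fit with the block by -0.18 (95% interval -0.37 to 0.01, adjusted p = 0.761). The value of run 4 rests on 1 array at 24 h, and its 6 h side holds 3 of the 4 poorly correlated CeA arrays. These values within runs come from the same arrays as the calls and are a description.

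**Figure D3:**
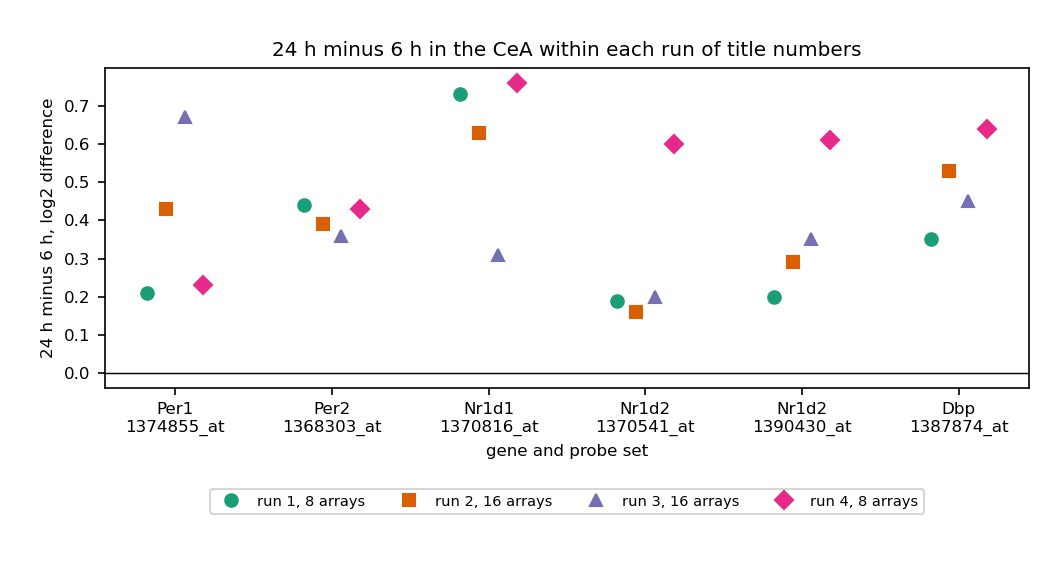
Log2 difference between 24 h and 6 h in the CeA (vertical axis) for the 6 probe sets that rose, computed within each of the 4 runs of title numbers with treatment as a covariate, 1 marker shape per run of 8 or 16 arrays, no error bars. Every value lies above 0, and those of Nr1d1 range from 0.31 to 0.76. The probe sets were picked by their rise over these same arrays, so the signs are not an independent repeat.

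Both treatments had Nr1d1 rising when tested alone from 6 h to 24 h in the CeA. In ethanol rats 2 of 13 passed (0.0430% of all; 0.0376% higher, 0.00537% lower), Nr1d1 with 0.49 (SE 0.09, limma adjusted p = 0.00313) and Nr1d2 1390430_at with 0.33 (SE 0.06, limma adjusted p = 0.00712). The same 2 fell from 1 h to 6 h (0.0322% of all passed, 0.00537% higher), by 0.48 and 0.32. Without the poorly correlated arrays Nr1d1 and Nr1d2 still passed both comparisons in ethanol rats, with adjusted p from 0.0186 to 0.0346. Over the 3 times 2 of 13 passed (0.0591% of all), and 4 with the run block (0.0966%). In water rats 1 of 13 rose from 6 h to 24 h (0.0107% of all passed), Nr1d1 by 0.67 (SE 0.12, limma adjusted p = 0.0108), but without the poorly correlated arrays its adjusted p was 0.260. That call was also lost without any 1 of water arrays 2, 6 or 17 at 6 h or 3 at 24 h. Per1 and Per2 in water rats differed by 0.58 and 0.59 and did not pass (adjusted p = 0.542 for both). Over the 3 times 0 of 13 passed in water rats (0% of all; 6 at an unadjusted p under 0.05 in limma). The ethanol by time interaction passed for 0 of 13 and for 0% of all in limma (at an unadjusted p under 0.05 for 1 of 13 and 250 of 18625), so that 0 of 13 is the share of all probe sets.

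The NAc shell had 1 clock gene that passed, Nr1d1. From 6 h to 24 h 1 of 13 passed, against 0.0859% of all (0.0805% higher, 0.00537% lower), and 11 of 13 were above 0 with a median of 0.18 (0.01 over all probe sets). Nr1d1 stood at 8.32 ± 0.16 (n = 17; 7.98, 8.34 and 8.58) at 1 h, 8.07 ± 0.18 (n = 15; 7.77, 8.07 and 8.29) at 6 h and 8.43 ± 0.22 (n = 16; 8.13, 8.37 and 8.89) at 24 h, with overlap. It rose by 0.37 (SE 0.07, 1.29-fold, limma adjusted p = 0.0191). In water rats alone the groups did not overlap, the highest of 5 arrays at 6 h being 8.26 and the lowest of 5 at 24 h 8.36, but their difference of 0.39 did not pass (SE 0.12, limma adjusted p = 1.00). The call was lost without any 1 of water arrays 28 or 29 at 6 h and 33 or 34 at 24 h (adjusted p up to 0.0691). Over the 3 times 1 of 13 passed, again Nr1d1 (limma adjusted p = 0.0435; 0.0805% of all), and without any 1 of 38 of the 48 arrays it did not. Without the 5 poorly correlated arrays the rise of Nr1d1 was 0.34 (adjusted p = 0.0310), and over the 3 times its adjusted p was 0.0716. In ethanol rats alone 0 of 13 passed over the 3 times (0.0376% of all; 7 at an unadjusted p under 0.05 in limma).

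Several other clock genes of the NAc shell gave values in the direction of the CeA that did not pass. Not all members did so, since Per3 differed by 0.09 there from 1 h to 6 h and by -0.27 in the CeA. From 6 h to 24 h Dbp differed by 0.29 (SE 0.08, adjusted p = 0.316), Per1 by 0.22 (SE 0.09, adjusted p = 0.915) and Per2 by 0.22 (SE 0.08, adjusted p = 0.641). Nr1d2 1390430_at differed by 0.20 (SE 0.06, adjusted p = 0.387), and Bmal1 by -0.15 (SE 0.07, adjusted p = 0.928). From 1 h to 6 h 0 of 13 passed in limma (7 at an unadjusted p under 0.05; 0.0268% of all). Bhlhe40, a DEC repressor, stood at 8.72 ± 0.34 (n = 17; 7.87, 8.73 and 9.23) at 1 h and 8.13 ± 0.47 (n = 15; 7.34, 8.16 and 9.07) at 6 h, which overlap, and its difference of -0.59 was the largest of the 13 there (SE 0.15, adjusted p = 0.198). From 1 h to 24 h 0 of 13 passed in limma (1 at an unadjusted p under 0.05; 0% of all).

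**Figure D4:**
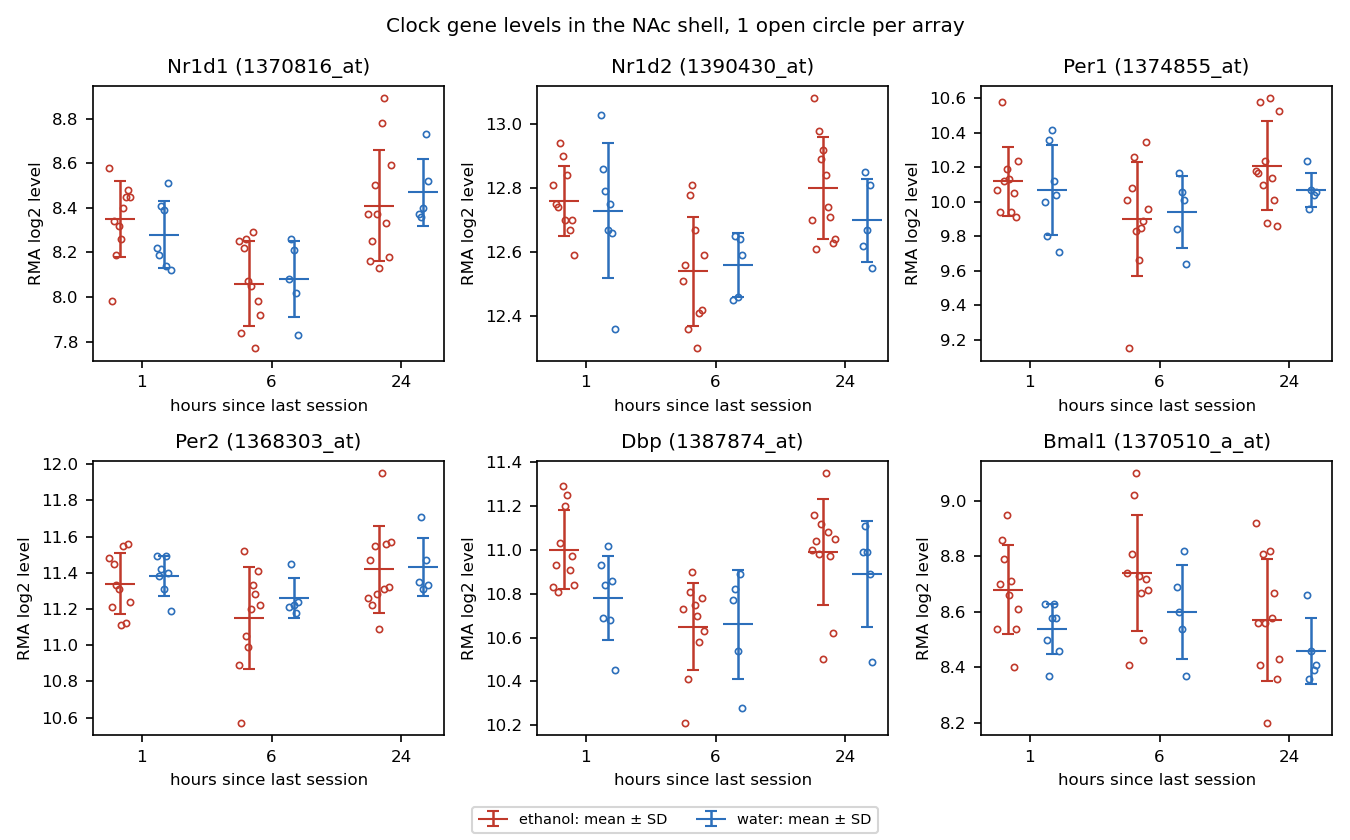
RMA log2 level (vertical axis) of the same 6 clock probe sets in the NAc shell against hours since the last episode, with 1 open circle per array and bars for mean ± SD, red for ethanol and blue for water rats. Nr1d1 is lowest at 6 h in both treatments, at 8.06 in ethanol and 8.08 in water rats, and vertical axes differ between panels and do not start at 0.

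Whether the regions differed was tested in 1 fit of all 96 arrays. The change from 6 h to 24 h in the CeA minus that in the NAc shell was above 0 for 11 of 13 (median 0.12) and passed for 0 of 13 in limma, with 4 at an unadjusted p under 0.05 and 0% of all called. It was 0.32 for Dbp (95% interval 0.00 to 0.64), 0.29 for Per2 (95% interval 0.05 to 0.53), 0.28 for Per1 (95% interval 0.01 to 0.54) and 0.21 for Nr1d1 (95% interval 0.01 to 0.42), each with an adjusted p of 0.994. From 1 h to 6 h Per3 had the largest regional difference, -0.36 (95% interval -0.61 to -0.11, adjusted p = 0.899). The regions were thus not shown to differ in these changes, although more genes passed in the CeA.

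Ethanol and water rats were compared to see whether drinking shifted the clock genes. Averaged over the 3 times, 0 of 13 passed in the CeA, and likewise 0 in the NAc shell, in limma. At an unadjusted p under 0.05 the numbers were 0 and 2, and 0% of all probe sets passed in each. The CeA differences, ethanol minus water, lay between -0.11 and 0.15. With 95% intervals they were -0.04 (-0.16 to 0.08) for Nr1d1, -0.02 (-0.10 to 0.06) for Nr1d2 1390430_at and 0.03 (-0.14 to 0.21) for Bmal1. They were 0.13 (-0.02 to 0.27) for Per1, -0.02 (-0.17 to 0.13) for Per2 1368303_at and 0.04 (-0.18 to 0.25) for Dbp. For Nr1d1 this interval, which is for the average over the 3 times, does not reach the size of its change with time. Its differences at 1, 6 and 24 h taken singly were 0.10, -0.02 and -0.20, and none passed. The average partly cancels these opposite signs, so its interval does not bound the effect at a single time. Bhlhe40 had the widest interval, 0.15 (-0.18 to 0.49).

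In the NAc shell the ethanol minus water difference was -0.00 (-0.12 to 0.11) for Nr1d1, with -0.16 (-0.30 to -0.02) for Per3 (adjusted p = 0.371) and 0.13 (0.02 to 0.24) for Bmal1 (adjusted p = 0.362). At 1, 6 and 24 h taken singly 0 of 13 passed in either region in limma, and 0% of all probe sets did. An unadjusted p under 0.05 was reached by 1, 0 and 0 of 13 in the CeA, and by 1, 1 and 0 in the NAc shell. Of all 18625 probe sets, from 122 (CeA, 24 h) to 1531 (CeA, 6 h) reached it. The 1 probe set in the CeA was Bhlhe41 at 1 h, 0.14 higher in ethanol rats (SE 0.05, adjusted p = 0.902). With the run block 48 of all probe sets passed for ethanol in the CeA (0.258%) and 0 of 13 clock probe sets. The ethanol effect differed between regions for 0 of 13 in limma (0 at an unadjusted p under 0.05; 0.00508% of all).

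**Figure D5:**
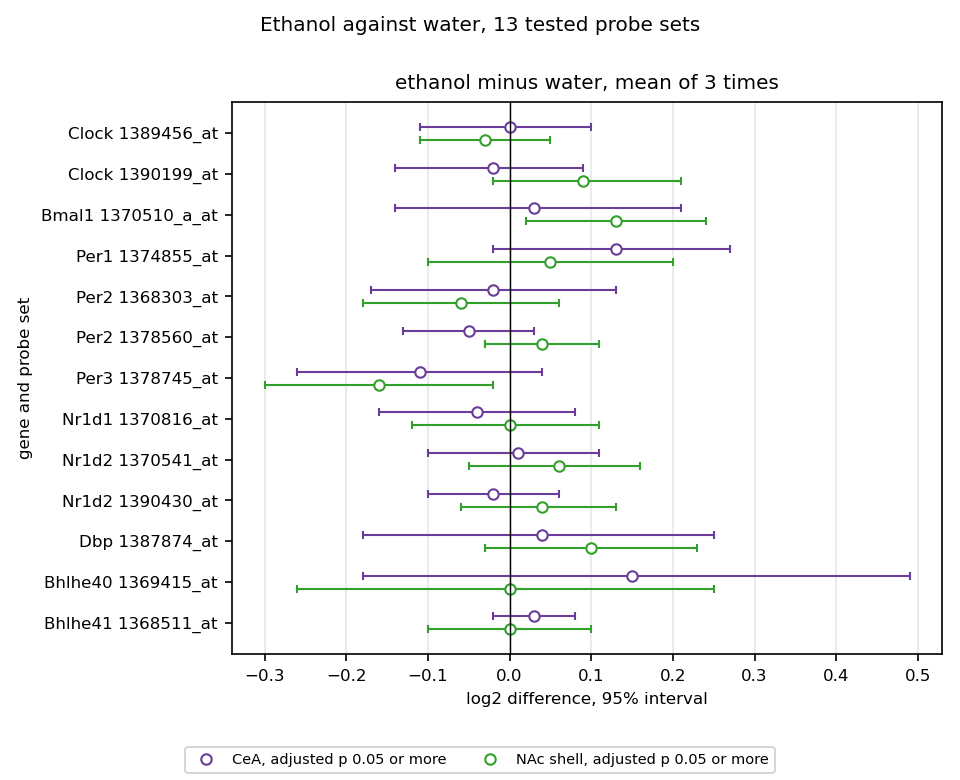
Ethanol minus water log2 difference (horizontal axis), averaged over the 3 times, of the 13 tested clock probe sets, with limma 95% intervals, purple for the CeA and green for the NAc shell. All points are open (adjusted p of 0.05 or more) and lie between -0.16 and 0.15.

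Of 24 other genes of the clock, 16 were tested in the CeA against 15 in the NAc shell, and 0 and 0 passed over the 3 times in limma (4 and 3 at an unadjusted p under 0.05). From 6 h to 24 h 10 of 16 were above 0 in the CeA, with a median of 0.01. Cry2, a partner of the PER proteins, differed by 0.19 there (SE 0.07, adjusted p = 0.323). Rora, which activates Bmal1 at ROR elements, differed by -0.38 (SE 0.13, adjusted p = 0.248). Usp2, a deubiquitinase under clock control, differed by 0.20 (SE 0.08, adjusted p = 0.345).

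Genes induced by the inputs of Per1 were also described. Of 9 tested immediate early genes, which neuronal activity induces, 0 passed from 6 h to 24 h in either region. In the CeA 9 were above 0 (median 0.43; 7 at an unadjusted p under 0.05 in limma). In the NAc shell 8 were (median 0.21). The count of 0 covers only the probe sets of that list. Outside it, Homer1 rose by 1.48 in the NAc shell from 6 h to 24 h (limma adjusted p = 0.0109). Nr4a3 rose there by 1.10 (limma adjusted p = 0.0389). Neither was called in the CeA. Of 7 tested glucocorticoid-induced genes, 2 rose in the CeA (0.166% of all probe sets did): the kinase gene Sgk1 by 0.94 (SE 0.16, limma adjusted p = 8.35e-04) and the metabolic kinase gene Pdk4 by 1.16 (SE 0.26, limma adjusted p = 0.0362). In the NAc shell 3 of them rose (0.0805% of all did), Sgk1 by 0.78 (SE 0.11, limma adjusted p = 1.59e-04), Pdk4 by 1.01 (SE 0.19, limma adjusted p = 0.0109) and the NF-kappaB inhibitor gene Nfkbia by 0.45 (SE 0.10, limma adjusted p = 0.0389). Their part in the changes of the clock genes was not tested.

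The tested markers of central amygdala neurons all had positive differences between 6 h and 24 h in the CeA, and none passed. All 6 of them were above 0 (median 0.47, 0 called, 2 at an unadjusted p under 0.05 in limma). The mean level of the list averaged 10.19 at 1 h (9.31 to 10.97), 10.03 at 6 h (9.07 to 11.08) and 10.34 at 24 h (9.34 to 11.06). With the list mean as a covariate, added after the data were seen, 18 of 19 called clock values in the CeA stayed called. The exception was Dbp, which differed by 0.47 from 6 h to 24 h with a limma adjusted p of 0.0515. These values repeat the same probe sets over comparisons that share arrays, so they are not independent. The list mean also includes Penk, Sst, Nts and Cartpt, which were higher in the NAc shell. Of the other cell types, 1 of 5 tested general neuron markers, 3 of 6 of astrocytes, 0 of 5 of oligodendrocytes, 2 of 7 of microglia and 0 of 6 of vessels were above 0 (medians -0.11, 0.00, -0.15, -0.10 and -0.08), and 0 passed in limma, with 1 neuron and 1 vessel marker at an unadjusted p under 0.05. In the NAc shell 6 of 6 medium spiny neuron markers were above 0 (median 0.09), and 0 passed in limma (0 at an unadjusted p under 0.05). Outside the comparison of 6 h with 24 h, the vessel marker Flt1 rose by 0.33 from 1 h to 6 h in the CeA (limma adjusted p = 0.0366). Flt1 also passed there over the 3 times (limma adjusted p = 0.0471). The part of cell makeup in the clock results was not tested beyond the covariate. The 3 prime minus 5 prime difference of Gapdh control probe sets, a sign of RNA integrity, averaged 2.92, 2.95 and 2.87 at 1, 6 and 24 h in the CeA. Averages for the NAc shell were 1.68 ± 0.19, 1.88 ± 0.25 and 1.88 ± 0.27, higher at 6 h and 24 h than at 1 h. With this difference as a covariate Nr1d1 still passed in the NAc shell, from 6 h to 24 h (0.37, adjusted p = 0.0184) and over the 3 times (adjusted p = 0.0454).

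Correlations between clock genes were computed within groups. For 1 probe set per gene and with group means removed, Pearson correlations over the 48 arrays of a region were computed for 45 pairs, a calculation added after the data were seen. In the CeA 31 pairs had a positive r and 19 passed at an adjusted p under 0.05 over 90 pairs (permutation within groups), and in the NAc shell 35 and 14. The share that passes among pairs of other probe sets was not computed, so these counts are not shown to be particular to clock genes. These permutations did not keep the runs of title numbers apart. With run means removed, 7 of the 19 CeA pairs had under 0.5 of their r, 2 of them with the opposite sign, and 12 had at least that part. The repressor genes Per2 and Nr1d1 had r = 0.53 (rho 0.49, permutation p = 2.00e-04 and 5.30e-04, adjusted 0.00138 and 0.00281) in the CeA, 0.45 without the 2 arrays farthest from the median of Per2 and 0.61 with run means removed. In the NAc shell Per2 and Nr1d1 did not pass (r = 0.34, rho 0.28, adjusted permutation p = 0.0895 and 0.173), with r = 0.19 without 2 arrays. Other repressor pairs of the CeA did not pass either, such as Nr1d1 with Nr1d2 (r = 0.02) and Per1 with Per2 (r = 0.13). Nr1d2 and Bhlhe41 had r = 0.55 (rho 0.46, permutation p = 0.00118 and 0.00499, adjusted 0.00531 and 0.0187) in the CeA, 0.44 without 2 arrays and 0.49 with run means removed. The same pair had r = 0.60 (rho 0.61, permutation p = 2.00e-05 and 4.00e-05, adjusted 3.60e-04 and 7.20e-04) in the NAc shell, and 0.58 without 2 arrays.

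The pairs with Bhlhe40 shown here differed in how far they rested on the runs. Dbp and Bhlhe40 had r = 0.65 (rho 0.73, permutation p = 1.00e-05 and 1.00e-05, adjusted 3.00e-04 and 4.50e-04) in the CeA, 0.64 without 2 arrays, and 0.08 with run means removed, so that the relation did not hold within runs. Per3 and Bhlhe40 ran opposite, with r = -0.79 (rho -0.75, permutation p = 1.00e-05 and 1.00e-05, adjusted 3.00e-04 and 4.50e-04), -0.75 without 2 arrays and -0.63 with run means removed. The p of 1.00e-05 is the smallest that 99999 permutations can give. In the NAc shell Per3 and Bhlhe40 had r = -0.46 (rho -0.37, permutation p = 0.00387 and 0.0154, adjusted 0.0151 and 0.0479), and -0.22 without the 2 arrays farthest from the median of Per3, on which that relation rests.

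Outside the 10 genes, those most like each clock gene that changed over the 3 times were ranked by the lower of the Pearson r within each region, over its 48 arrays, time included. With r in the CeA first, they were Cry2 (0.69 and 0.68), Sik1 (0.63 and 0.75) and Acap3 (0.59 and 0.66) for Per1 and Hlf (0.71 and 0.73), Cflar (0.67 and 0.77) and Rapgef2 (0.70 and 0.67) for Per2. For Nr1d1 they were Stk17b (0.60 and 0.56), Rbm3 (0.66 and 0.55) and Homer1 (0.54 and 0.56), and for Nr1d2 Klf4 (0.72 and 0.66), Ccz1 (0.65 and 0.67) and Phactr3 (0.61 and 0.65). Arrays of a region share their processing, and these values are a description.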

How the data were processed

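Biotin-labelled RNA of 96 tissue samples, amplified in 2 cycles from 25 ng per the labels, was hybridised to Affymetrix rat arrays, 48 per region. The deposited table holds log2 values that the authors made by RMA, per the submitters' processing notes; the RMA version and scan dates are not given in the sources used here. No raw intensities were used. Of 31099 probe sets 57 controls were left out. Symbols came from GEO's platform annotation: 20826 probe sets had 1 symbol, 436 several and 9780 were not listed.

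Each region was fitted with limma 3.58.1 (R 4.3.3): means of 6 groups, eBayes with a trend, Benjamini-Hochberg adjustment over the 18625 probe sets whose mean exceeded the 40th percentile (6.96 in the CeA, 7.09 in the NAc shell). Values over both treatments weight ethanol and water equally. A fit of both regions tested 19678 probe sets, with arrays taken as independent. Poorly correlated arrays lay over 3 scaled median absolute deviations below the region's median correlation. The test between 6 h and 24 h was also run on simulated data with independent noise on each array. That simulation held no runs of title numbers and no poorly correlated arrays, so it does not cover them. The number of arrays limits the precision.

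Named were all members, passing genes of the other lists and up to 4 more by smallest p, and the 3 genes most like each member that changed with time. The members and lists were chosen with earlier results of these data known. Alternatives were no filter, the 60th percentile, repeated quantile normalization, array weights, no trend, Gapdh and marker covariates, blocks for title number and run, and arrays left out.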

Additional observations from a re-analysis of the deposited data

Results flagged for a closer look

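Within groups of 4 to 10 arrays, 130 groups of a tested clock probe set were examined for an array far from the others, by a gap test that marks about 5% of groups by chance (6.5 here), and 9 were found. In the CeA, Clock 1389456_at had a water array at 24 h at 11.75, with the nearest at 11.53, and Per3 1378745_at had an ethanol array at 6 h at 8.71 (nearest 9.02). Nr1d2 1390430_at had a water array at 6 h at 12.59 (nearest 12.40). Dbp had 2 such water arrays, one at 1 h at 10.74 (nearest 9.99) and one at 24 h at 9.61 (nearest 10.15). In the NAc shell, Per1 had an ethanol array at 1 h at 10.58 (nearest 10.24), and Per2 1368303_at a water array at 6 h at 11.45 (nearest 11.24). Per3 at 9.12 (nearest 9.86) and Bhlhe41 at 12.53 (nearest 12.96) were both low on ethanol array 44 at 6 h, 1 of the 5 NAc shell arrays that correlated poorly with the rest.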

How the results depend on the processing

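No called clock value changed sign under the settings run; values that did not pass could, such as Clock 1389456_at from 6 h to 24 h in the CeA (0.07, lowest -0.04). Counts of clock probe sets called that moved by over 1.5 times, over both treatments or over the times, were these. Without the poorly correlated arrays, the CeA had 3 (main 6) from 6 h to 24 h, 1 (main 2) from 1 h to 6 h and 1 (main 4) over the 3 times, and the NAc shell 0 (main 1) over the 3 times. With the filter at the 60th percentile, which leaves Nr1d1 untested, the CeA had 0 from 1 h to 6 h and 1 (main 2) over the times in ethanol rats, and the NAc shell 0 from 6 h to 24 h and 0 over the times. Without a filter the CeA had 1 from 1 h to 6 h and the NAc shell 0 over the times. Without a trend the CeA had 1 from 1 h to 6 h, and repeated quantile normalization gave 0 over the times in the NAc shell. With array weights there was 1 (main 0) over the times in CeA water rats, 3 (main 0) from 1 h to 6 h and 2 (main 1) over the times in the NAc shell. The run block gave 4 (main 2) over the times and 4 (main 2) from 6 h to 24 h in CeA ethanol rats, and the added CeA marker covariate 1 (main 0) in CeA water rats. In CeA water rats Nr1d1, the 1 called from 6 h to 24 h, was lost without the poorly correlated arrays (adjusted p = 0.260). At the 60th percentile Nr1d2 1390430_at, the other CeA call from 1 h to 6 h, stayed tested and no longer passed. Apart from Nr1d1 being untested at that percentile, the causes of these moves were not tested.

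With each array left out in turn, counts ranged from 4 to 6 in the CeA from 6 h to 24 h, 1 to 2 from 1 h to 6 h (15 of 48 arrays gave 1), 2 to 5 over the times and 0 to 1 over the times in water rats. In the NAc shell they ranged from 0 to 1 from 6 h to 24 h, 0 to 1 from 1 h to 6 h and 0 to 2 over the times. CeA ethanol rats over the times kept 2 throughout. Counts of 24 h minus 1 h, of ethanol against water, of the interaction, of the times within a treatment in the NAc shell, and of the regional difference in time course and in ethanol effect kept 0. Between single times in 1 treatment, Nr1d1 and Nr1d2 stayed called in CeA ethanol rats without any 1 array, and Nr1d1 in CeA water rats was lost without any 1 of 4. Same-numbered ethanol and water arrays did not deviate together on average (mean r 0.07 over 17 numbers in the CeA, -0.33 over 3 in the NAc shell). In the CeA r was as low as -0.78 and above 0.1 for 8 numbers. A pairing of arrays by number was thus not shown, and these values cannot exclude it. With the replicate block on the title number the counts stayed at 6, 2, 4 and 2 in the CeA (6 h to 24 h, 1 h to 6 h, over the times, and in ethanol rats) and at 1 and 1 in the NAc shell. With that block Nr1d1 and Nr1d2 also stayed called between single times in CeA ethanol rats, and Nr1d1 in CeA water rats.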
